A study of Mus musculus with 10 samples.

Results

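The NRF2 antioxidant response and the defence against ferroptosis were followed through 10 genes, Nfe2l2, Keap1, Nqo1, Hmox1, Gclc, Gclm, Slc7a11, Gpx4, Aifm2 and Tfrc, in RNA-seq of the subcutaneous fat depot of the groin, inguinal white adipose tissue. The genes were taken by symbol from a table of raw counts for 40501 gene identifiers. Each of the 10 stood there once, and all 10 passed the filter on low counts, which left 14913 genes for testing. The tissue gave 5 libraries of PexRAP-AKO mice, which are Cre-positive and lack PexRAP in adipose tissue (replicates 1, 2, 3, 5 and 6), and 5 libraries of Control mice, which are Cre-negative (replicates 2, 3, 5, 7 and 8). All were male, chow-fed and on a C57/BL6J background, and the labels give 8 weeks both as their age and as the time on chow. The sources used here give neither the Cre driver nor whether Control mice carry a floxed allele. PexRAP, encoded by Dhrs7b, is a reductase of peroxisomal ether lipid synthesis, and the comparison asks how its loss in fat alters transcript levels there.

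NRF2, the product of Nfe2l2, is a transcription factor that binds antioxidant response elements in the DNA of genes for glutathione synthesis, quinone reduction and haem breakdown. KEAP1 holds it in check by presenting it for degradation, and oxidants or electrophiles that modify KEAP1 release it, so that the control is largely at the level of the protein. Ferroptosis is a form of cell death driven by iron-dependent peroxidation of membrane phospholipids, and ether phospholipids are among the lipids that can be peroxidised. Cells oppose it by importing cystine, making glutathione and reducing lipid peroxides with GPX4, and by a separate route in which AIFM2, also called FSP1, keeps coenzyme Q reduced.

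Libraries held 11274865 to 16513769 counts in PexRAP-AKO and 11593437 to 19881168 counts in Control. Dhrs7b averaged 19.9 ± 2.26 CPM in PexRAP-AKO and 82.4 ± 12.8 CPM in Control (SD, n = 5 each; CPM are counts scaled to library size by TMM), with no overlap.  The 10 white adipocyte markers, Adipoq and Plin1 among them, summed to 40643 to 49972 CPM in PexRAP-AKO and 40715 to 52819 CPM in Control. Markers of other cells varied widely within both groups. The 12 macrophage markers summed to 867 to 2413 CPM in PexRAP-AKO and 1012 to 1985 CPM in Control, the 12 brown adipocyte markers to 620.4 to 2989 CPM and 289 to 2310 CPM, the 12 skeletal muscle markers to 12.1 to 133 CPM and 18.3 to 1398 CPM, and the 10 lymphocyte markers to 11.7 to 156 CPM and 10.5 to 55.9 CPM. The 8 endothelial markers summed to 607 to 850 CPM in PexRAP-AKO and 852 to 1048 CPM in Control, narrowly without overlap. Their mean log2 CPM did overlap, at 6.01 to 6.53 in PexRAP-AKO and 6.51 to 6.79 in Control. All 8 had negative fold changes (median log2 fold change -0.26) with 0 called. All 12 brown adipocyte and all 9 tested lymphocyte markers had positive fold changes (medians 0.80 and 1.34) and all 12 muscle markers negative ones (median -2.49), with 0 called. White adipocyte, macrophage, erythroid, fibroblast and tissue quality genes had medians of -0.099, 0.17, 0.13, 0.046 and -0.27, with 0 called. The 6 epithelial markers, of which only Cdh1 passed the filter, summed to 0.324 to 47.4 CPM in PexRAP-AKO and 1.11 to 8.30 CPM in Control, and no marker of any list was at 0 in all libraries. In bulk tissue, fewer cells of a type and less RNA per cell cannot be told apart.

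None of the 10 genes passed edgeR's quasi-likelihood test at a Benjamini-Hochberg adjusted p under 0.05, as 0.101% of all genes tested did, 0.0939% higher and 0.00671% lower in PexRAP-AKO. For Gpx4, Keap1 and Gclm the lowest PexRAP-AKO library was above the highest Control library, with fitted folds of 1.17, 1.15 and 1.18, and these 3 were also the only members with an unadjusted p under 0.05 in edgeR. Over all genes tested, 15.5% had an unadjusted p under 0.05 (9.01% higher and 6.44% lower), and the groups did not overlap for 3.41% (2.08% higher and 1.33% lower). Nfe2l2, Gclc, Aifm2 and Nqo1 had fitted folds between 0.937 and 1.02 with overlapping groups. Hmox1, Slc7a11 and Tfrc were more spread among the libraries of each group, and their groups overlapped. Over the 10 members the median log2 fold change was 0.084, against -0.00065 over all genes tested.

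**Figure D1:**
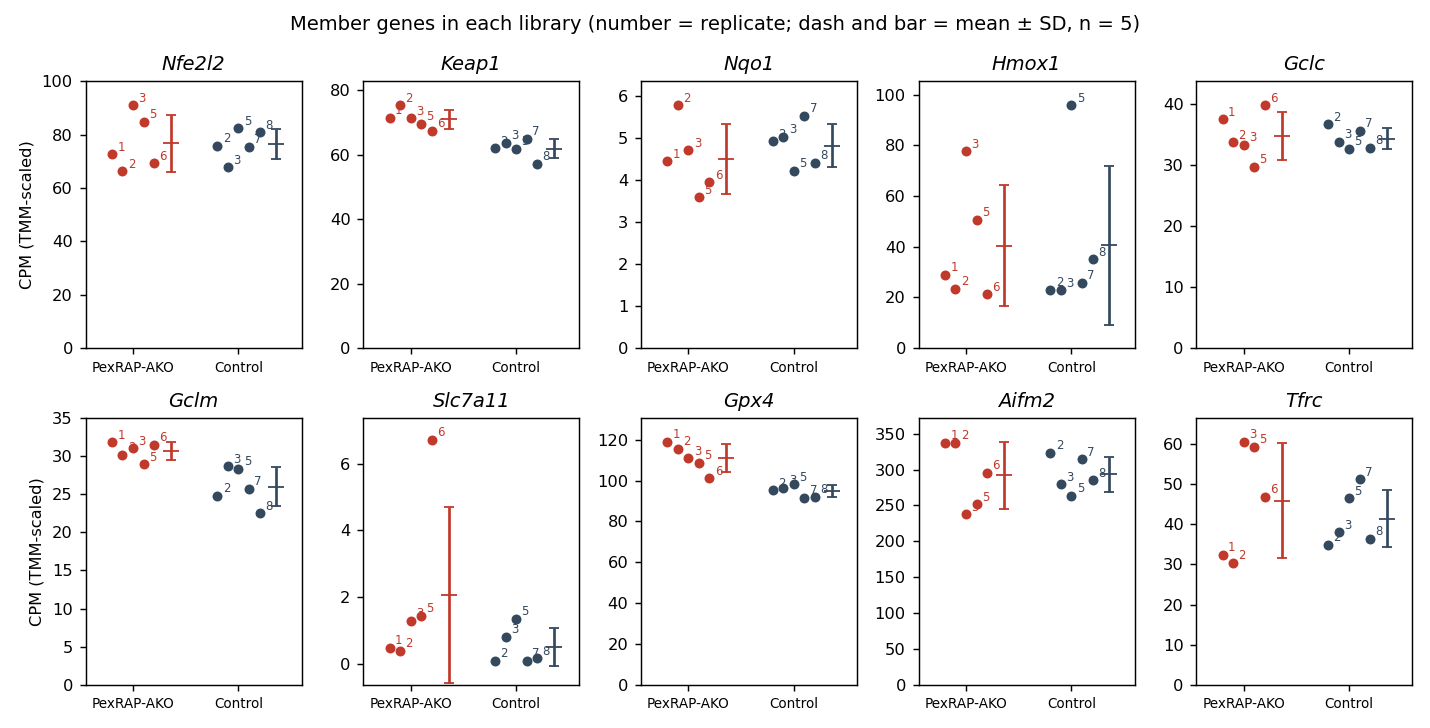
CPM of the 10 genes in each library, with PexRAP-AKO on the left and Control on the right of each panel, 1 point per library labelled with its replicate number, and the mean with SD (n = 5 each) beside the points. The groups are apart for Keap1, Gclm and Gpx4, while Hmox1 stands out in PexRAP-AKO replicate 3 (77.6 CPM) and Control replicate 5 (95.8 CPM), and Slc7a11 in PexRAP-AKO replicate 6 (6.71 CPM).

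Promoter windows from RefSeq on GRCm38.p6, from 250 bases before to 50 bases after a transcription start, were found for 8 of the 10 members, all but Hmox1 and Gclc, with 12 windows in all because Gpx4 and Tfrc have several starts. The core of the antioxidant response element was searched as TGACNNNGC on both strands, and the amino acid response element, through which ATF4 acts on genes of amino acid supply, as TGATGNAA on both strands. Of 32851 windows of that length in the mouse, 12.4% held the first and 3.97% the second, and the 2 motifs did not overlap in any member. Among the members, the first was found in Nfe2l2 at 240 bases before the start and in Gclm at 134 bases before it, on the opposite strand. The second was found in Slc7a11 alone, in 2 copies facing each other at 66 and 47 bases before the start. The 250 bases before the start are shown for these 3 genes because they hold the only matches, marked by capitals. The windows lie at chr2:75704664-75704913 on the minus strand, chr3:122245307-122245556 on the plus strand and chr3:50443614-50443863 on the minus strand, in that order.
Nfe2l2: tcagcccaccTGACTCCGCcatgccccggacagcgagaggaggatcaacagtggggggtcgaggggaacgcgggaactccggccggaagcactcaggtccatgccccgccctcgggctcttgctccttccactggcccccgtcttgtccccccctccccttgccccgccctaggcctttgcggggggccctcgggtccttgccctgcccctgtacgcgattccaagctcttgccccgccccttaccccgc
Gclm: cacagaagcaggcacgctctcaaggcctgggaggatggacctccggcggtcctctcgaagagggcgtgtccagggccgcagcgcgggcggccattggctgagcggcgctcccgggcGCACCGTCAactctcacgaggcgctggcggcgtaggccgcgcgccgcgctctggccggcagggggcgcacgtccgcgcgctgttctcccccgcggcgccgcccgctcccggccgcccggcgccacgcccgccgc
Slc7a11: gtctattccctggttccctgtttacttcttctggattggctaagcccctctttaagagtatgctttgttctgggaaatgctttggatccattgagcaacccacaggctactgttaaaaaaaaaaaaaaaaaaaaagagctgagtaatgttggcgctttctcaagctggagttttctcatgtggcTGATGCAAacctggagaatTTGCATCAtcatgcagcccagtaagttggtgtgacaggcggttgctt
A match describes letters only, and windows without one, such as those of Keap1 and Gpx4, say nothing of elements farther away.

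Nfe2l2 (ENSMUSG00000015839, chromosome 2, 75675513 to 75704641, GENCODE M21 on GRCm38) encodes NRF2 itself. It stood at 72.5, 66.2, 90.9, 84.8 and 69.2 CPM in PexRAP-AKO replicates 1, 2, 3, 5 and 6, against 75.8, 67.7, 82.3, 75.5 and 80.8 CPM in Control replicates 2, 3, 5, 7 and 8. The PexRAP-AKO values lie on both sides of the Control values. Its log2 fold change of 0.0057 (SE 0.092, edgeR adjusted p = 0.983) had a 95% interval of -0.20 to 0.21, or a fold of 0.873 to 1.15. The sign changed with the processing: scaled by total counts alone, the value was -0.066.

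Keap1 (ENSMUSG00000003308, chromosome 9, 21229730 to 21239361) encodes the adaptor that presents NRF2 to a ubiquitin ligase. It stood at 71.4, 75.4, 71.4, 69.6 and 67.5 CPM in PexRAP-AKO and at 62.0, 63.6, 61.8, 64.9 and 57.1 CPM in Control. All PexRAP-AKO libraries were above all Control libraries, and both groups were narrow. Keap1 had a log2 fold change of 0.20 (SE 0.05, edgeR adjusted p = 0.143), with a 95% interval for the fold of 1.06 to 1.24. With DESeq2, Keap1 passed (adjusted p = 0.025), as did 4.27% of the 10287 genes to which DESeq2 gave an adjusted p (3.0% higher in PexRAP-AKO). An antisense gene, Gm16754, covers 10.9% of the exonic bases of Keap1, and without stated strand its reads cannot be told apart; it held 203 counts over the 10 libraries, against 9440 for Keap1. The level of Nfe2l2 relative to Keap1 within a library differed by -0.20 on the log2 scale between PexRAP-AKO (0.10 ± 0.22) and Control (0.30 ± 0.16; SD, n = 5 each, exact two-sided permutation p = 0.151, adjusted p = 0.201 over 4 ratios), and the groups overlapped.

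Gclc (ENSMUSG00000032350, chromosome 9, 77754535 to 77794485) and Gclm (ENSMUSG00000028124, chromosome 3, 122245557 to 122270732) encode the catalytic and modifier subunits of glutamate-cysteine ligase, the first step of glutathione synthesis. Gclc stood at 37.6, 33.7, 33.3, 29.7 and 39.8 CPM in PexRAP-AKO and at 36.7, 33.9, 32.7, 35.6 and 32.9 CPM in Control. Both the lowest and the highest value belonged to PexRAP-AKO libraries. Its log2 fold change was 0.022 (SE 0.079, edgeR adjusted p = 0.922), with a 95% interval for the fold of 0.901 to 1.14. Gclm, whose window above holds a match to the antioxidant response element, stood at 31.8, 30.2, 31.0, 28.9 and 31.5 CPM in PexRAP-AKO and at 24.8, 28.6, 28.3, 25.7 and 22.5 CPM in Control. The PexRAP-AKO values were tightly grouped and lay just above the highest Control values, those of replicates 3 and 5. Gclm had a log2 fold change of 0.24 (SE 0.07, edgeR adjusted p = 0.185), with a 95% interval for the fold of 1.05 to 1.32. In the 6 libraries numbered 2, 3 and 5 the Gclm log2 fold change was 0.13. Scaled by total counts alone, the Gclm and Gpx4 groups overlapped, and Keap1 was the only member whose groups did not. Gm17494, on the opposite strand, and the pseudogene Gm6061 cover 4.71% and 3.88% of the exonic bases of Gclm and held 136 and 0 counts over the 10 libraries, against 4054 for Gclm.

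Within each library, Gclm was also set against Gclc. The log2 ratio of Gclm to Gclc was -0.18 ± 0.12 in PexRAP-AKO and -0.40 ± 0.17 in Control (SD, n = 5 each), a difference of 0.23 (exact two-sided permutation p = 0.0476). Adjusted over the 4 ratios compared, the p was 0.19, and the groups overlapped, so the difference did not pass. The smallest p that 5 against 5 libraries allow is 0.00794.

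Slc7a11 (ENSMUSG00000027737, chromosome 3, 49892526 to 50443614) encodes the cystine transporter xCT, which exchanges glutamate for cystine in a pair with SLC3A2. It was scarce, with 6, 6, 17, 16 and 95 counts in PexRAP-AKO and 1, 16, 27, 1 and 2 counts in Control. In CPM that was 0.486, 0.39, 1.29, 1.44 and 6.71 in PexRAP-AKO and 0.085, 0.806, 1.36, 0.0813 and 0.161 in Control. One library, PexRAP-AKO replicate 6, held far more than the others, and the Control libraries fell into 3 near 0 and the 2 of the deepest libraries. Fitted over all libraries, the log2 fold change was 1.86 (SE 0.91, edgeR adjusted p = 0.359), with a 95% interval for the fold of 0.899 to 14.6. Without PexRAP-AKO replicate 6 it was 0.61, and without Control replicates 3 and 5 together, left out after seeing the data, it was 4.13 (edgeR adjusted p = 0.166). PexRAP-AKO replicate 6 also had the highest sums of lymphocyte markers (156 CPM) and epithelial markers (47.4 CPM), and with the lymphocyte score as a covariate the log2 fold change was 0.50; the part of those cells in the Slc7a11 value was not tested. Slc3a2, the partner, averaged 74.1 ± 4.96 CPM in PexRAP-AKO and 81.1 ± 4.81 CPM in Control (SD, n = 5 each, edgeR adjusted p = 0.342). The log2 ratio of Slc7a11 to Slc3a2 was -5.74 ± 1.53 in PexRAP-AKO and -7.45 ± 1.36 in Control, with overlap (SD, n = 5 each, exact two-sided permutation p = 0.103, adjusted p = 0.201).

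Gpx4 (ENSMUSG00000075706, chromosome 10, 80047166 to 80056439) encodes the selenoenzyme that reduces phospholipid hydroperoxides with glutathione. It stood at 119, 116, 111, 109 and 101 CPM in PexRAP-AKO and at 95.3, 96.5, 98.3, 91.6 and 92.0 CPM in Control. The lowest PexRAP-AKO library, replicate 6, was above the highest Control library, replicate 5. Gpx4 had a log2 fold change of 0.23 (SE 0.05, edgeR adjusted p = 0.12), with a 95% interval for the fold of 1.08 to 1.27, and DESeq2 gave an adjusted p of 0.00848. Over the settings tried, the log2 fold change ran from 0.16 with total counts alone to 0.27 with the lymphocyte score as a covariate. Adjusted for brown adipocyte markers, it was 0.22 (edgeR adjusted p = 0.38). Among 13079 genes, those whose deviations from the group means were most like those of Gpx4 over the 10 libraries were Hilpda (Pearson r = 0.97), Hps5 (0.898) and Evc2 (0.896). For Keap1 they were Spa17 (0.933), Psmb1 (0.922) and Dnajc30 (0.921). These r are a description, with no test, and the highest of so many comparisons are high by selection.

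**Figure D2:**
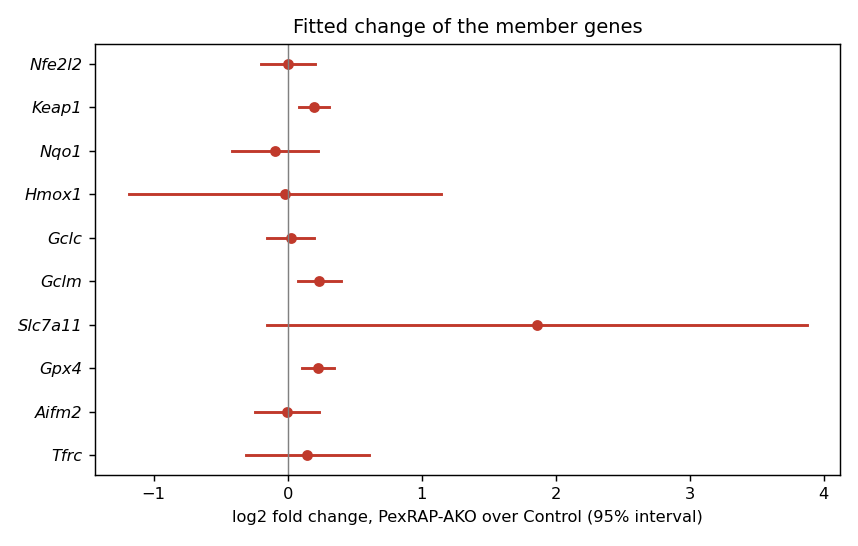
Fitted log2 fold change of each gene, PexRAP-AKO over Control, as a point with its 95% interval from edgeR's quasi-likelihood fit. The intervals of Keap1, Gclm and Gpx4 are narrow and lie above 0 without adjustment for the number of genes, whereas those of Hmox1 and Slc7a11 are wide and include 0.

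Aifm2 (ENSMUSG00000020085, chromosome 10, 61715263 to 61739260) encodes the coenzyme Q reductase of the glutathione-independent defence. It stood at 337, 337, 238, 251.7 and 295 CPM in PexRAP-AKO and at 323, 279.7, 264, 314 and 285 CPM in Control. PexRAP-AKO libraries held both the highest and the lowest values. Its log2 fold change was -0.0066 (SE 0.11, edgeR adjusted p = 0.984), with a 95% interval for the fold of 0.844 to 1.17. H2afy2 overlaps 5.65% of its exonic bases on the opposite strand and held 533 counts, against 41478 for Aifm2.

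Per kilobase of exon, where levels of different genes can be compared, Aifm2 (70.8 ± 11.3 CPM per kilobase in PexRAP-AKO and 71.2 ± 6.05 in Control) and Gpx4 (64.4 ± 3.98 in PexRAP-AKO and 55.0 ± 1.68 in Control; SD, n = 5 each) were the most abundant of the 10. They were followed in both groups by Hmox1, Nfe2l2, Keap1, Gclc, Tfrc, Gclm, Nqo1 and Slc7a11, the last at 0.148 ± 0.19 in PexRAP-AKO and 0.0358 ± 0.0408 in Control. The order of some neighbours was not stable. Aifm2 exceeded Gpx4 in 3 of 5 PexRAP-AKO and 5 of 5 Control libraries, Hmox1 exceeded Nfe2l2 in 2 of 5 PexRAP-AKO and 1 of 5 Control libraries, and Gclc exceeded Tfrc in 3 of 5 PexRAP-AKO and 5 of 5 Control libraries. All other neighbours down to Slc7a11 kept their order in 5 of 5 libraries of each group. The exon lengths are those of all annotated exons together, so the level of a gene with long, little used exons is understated.

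Nqo1 (ENSMUSG00000003849, chromosome 8, 107388225 to 107403206), a quinone reductase and classical NRF2 target, was low in this fat depot, with 40 to 89 counts in PexRAP-AKO and 55 to 100 counts in Control. It stood at 4.45, 5.79, 4.72, 3.59 and 3.96 CPM in PexRAP-AKO and at 4.93, 5.03, 4.22, 5.53 and 4.42 CPM in Control. The groups overlapped almost completely. The log2 fold change was -0.094 (SE 0.15, edgeR adjusted p = 0.809), with a 95% interval for the fold of 0.749 to 1.17. With 1 library left out it ran from -0.20, without PexRAP-AKO replicate 2, to -0.030, without PexRAP-AKO replicate 5.

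Hmox1 (ENSMUSG00000005413, chromosome 8, 75093621 to 75100589) encodes haem oxygenase 1, which releases iron from haem and is abundant in macrophages that clear red cells. It stood at 28.8, 23.5, 77.6, 50.6 and 21.3 CPM in PexRAP-AKO and at 23.0, 22.9, 95.8, 25.8 and 35.0 CPM in Control. Of the 10 libraries, 3 stood high, PexRAP-AKO replicates 3 and 5 and Control replicate 5, so that each genotype had low and high libraries. For Hmox1 the log2 fold change was -0.020 (SE 0.52, edgeR adjusted p = 0.989), and its 95% interval for the fold, 0.44 to 2.21, holds more than a doubling in either direction. Without Control replicate 5 the log2 fold change was 0.60 (edgeR adjusted p = 0.472), and without PexRAP-AKO replicate 3 it was -0.40 (edgeR adjusted p = 0.786).

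Hmox1 moved with the macrophage score, the mean log2 CPM of the 12 macrophage markers. Over the 10 libraries Pearson's r was 0.965 (permutation p = 9e-05, adjusted p = 0.0034 over 40 pairs of a member and a score) and Spearman's rho was 0.939 (permutation p = 0.00025, adjusted p = 0.01). Without the 2 libraries farthest from the median score, PexRAP-AKO replicate 3 and Control replicate 5, r was 0.958. Nfe2l2 moved the same way, with r = 0.902 (permutation p = 0.00017, adjusted p = 0.0034), rho = 0.855 (permutation p = 0.00248, adjusted p = 0.0496) and r = 0.86 without the same 2 libraries. Aifm2 leaned the other way (r = -0.817, permutation p = 0.00416, adjusted p = 0.0555; rho = -0.673, permutation p = 0.0393, adjusted p = 0.262; r = -0.644 without those 2), which did not pass. The macrophage score itself was 6.10 ± 0.63 in PexRAP-AKO and 6.04 ± 0.41 in Control (SD, n = 5 each). With that score as a covariate the log2 fold changes of Hmox1, Nfe2l2 and Aifm2 were -0.071, -0.019 and 0.0042, and none passed. For Gpx4 and Keap1 the relation to the macrophage score did not pass, with r of 0.153 and -0.0106 (permutation p = 0.668 and 0.977, adjusted p = 0.89 and 0.977). Their rho was 0.0788 and -0.139 (permutation p = 0.838 and 0.708, adjusted p = 0.932 for both). No pair with the brown adipocyte, skeletal muscle or lymphocyte score passed. Keap1 and the skeletal muscle score had r = -0.685 (permutation p = 0.0299, adjusted p = 0.24), or -0.249 without the 2 farthest libraries. Within PexRAP-AKO and Control that r was -0.855 and -0.804. With the lymphocyte score, r within the same groups was -0.885 and -0.943 for Keap1 and -0.931 and -0.492 for Gpx4. These within-group r were picked from many and not tested.

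**Figure D3:**
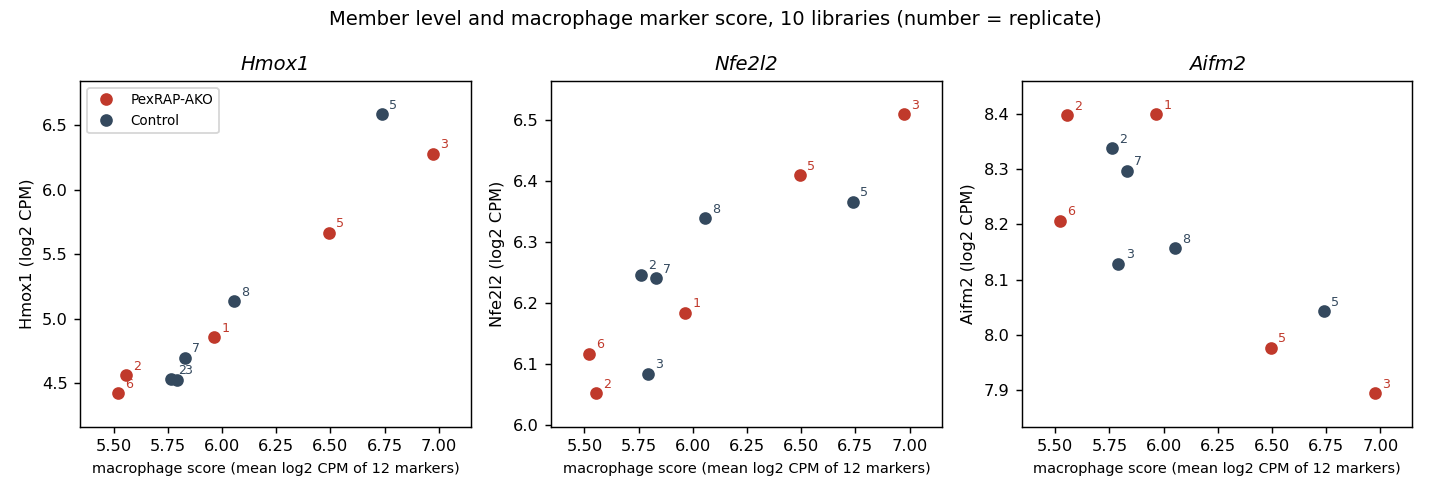
Log2 CPM of Hmox1, Nfe2l2 and Aifm2 against the macrophage score, the mean log2 CPM of 12 markers, for 5 PexRAP-AKO and 5 Control libraries labelled with their replicate numbers. Libraries of both groups lie along 1 line for Hmox1 (r = 0.965), with PexRAP-AKO replicates 3 and 5 and Control replicate 5 at the upper end.

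Tfrc (ENSMUSG00000022797, chromosome 16, 32608920 to 32632794) encodes the transferrin receptor, through which cells take up iron. It stood at 32.5, 30.4, 60.5, 59.3 and 46.9 CPM in PexRAP-AKO and at 34.9, 38.0, 46.5, 51.2 and 36.4 CPM in Control. The 2 highest and the 2 lowest libraries were all PexRAP-AKO. The log2 fold change was 0.15 (SE 0.21, edgeR adjusted p = 0.783), with a 95% interval for the fold of 0.805 to 1.52. Fth1, the heavy chain of the iron store ferritin, averaged 679.9 ± 45.2 CPM in PexRAP-AKO and 693 ± 24.1 CPM in Control (SD, n = 5 each, edgeR adjusted p = 0.89). The log2 ratio of Tfrc to Fth1 was -3.94 ± 0.39 in PexRAP-AKO and -4.08 ± 0.22 in Control (SD, n = 5 each, exact two-sided permutation p = 0.5, adjusted p = 0.5). Single libraries moved these values: the Tfrc log2 fold change was 0.026 without PexRAP-AKO replicate 3, 0.039 without PexRAP-AKO replicate 5, 0.25 without PexRAP-AKO replicate 1, 0.27 without PexRAP-AKO replicate 2 and 0.23 without Control replicate 7. The difference in the log2 ratio of Tfrc to Fth1, 0.14, ran from 0.048 to 0.26 with 1 library left out. Adjusted for the brown adipocyte score, the Tfrc log2 fold change was -0.040.

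Among the members themselves, 45 pairs were compared over the 10 libraries. Nfe2l2 and Hmox1 had r = 0.835 (permutation p = 0.00175, adjusted p = 0.0394; rho = 0.806, permutation p = 0.00676, adjusted p = 0.076; r = 0.846 without the 2 farthest). Both genes also moved with the macrophage score (r = 0.902 for Nfe2l2 and 0.965 for Hmox1), and the part of that score in their relation was not tested. The groups do not overlap for Keap1, Gpx4 or Gclm, so no pooled r is given for pairs of these 3, and with 5 libraries a group a relation within groups was not tested. The adjusted p values cover all 45 pairs, those of these 3 genes included. Keap1 with Gpx4 had a smaller permutation p than Nfe2l2 with Hmox1, and this lowered the adjusted p of 0.0394. That value would be larger without the pairs of these 3 genes, so Nfe2l2 and Hmox1 are not taken as passing. No pair passed by rho.

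Other genes of the same pathways were described from 9 lists. Of the 11 measured NRF2 regulators, such as Cul3, the ubiquitin ligase scaffold, and Bach1, a repressor at the same elements, 0 were called, and their median log2 fold change was -0.0097. The 3 with the smallest p were Dpp3, a KEAP1 binding protein (0.15), Rbx1 (0.12) and Btrc (-0.14), with edgeR adjusted p of 0.274, 0.396 and 0.409. Of 22 tested genes of glutathione synthesis and conjugation, 0 were called, with a median of 0.073, and Gsta1, Gstp1 and Gstp2 had 0 counts. Gss, glutathione synthetase, came nearest, at 38.9 ± 8.29 CPM in PexRAP-AKO and 24.3 ± 1.77 CPM in Control (SD, n = 5 each) with no overlap, a log2 fold change of 0.67 and an edgeR adjusted p of 0.0846. It passed in 4 of 26 other settings, each of which also called more genes in all, 58 to 439 against 15. Gsta4, a glutathione transferase for lipid aldehydes, was at 0.44 and Abcc3, an exporter of conjugates, at -0.26 (edgeR adjusted p = 0.188 and 0.252).

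The 5 genes of the thioredoxin system had positive fold changes, with a median of 0.19 and 0 called. Prdx1, a peroxiredoxin, was at 0.29, Srxn1, which restores overoxidised peroxiredoxins, at 0.44 and Txn1, thioredoxin, at 0.19 (edgeR adjusted p = 0.151, 0.228 and 0.242). The 6 genes of NADPH supply, which feeds both the glutathione and the thioredoxin systems, also had positive fold changes, with a median of 0.44, the highest of the 9 lists, and 0 called. G6pdx, the entry enzyme of the pentose phosphate pathway, averaged 221 ± 28.1 CPM in PexRAP-AKO and 149 ± 12.1 CPM in Control (SD, n = 5 each, log2 fold change 0.57, edgeR adjusted p = 0.051), with no overlap. It passed in 13 of 26 other settings, DESeq2 among them. Of the fits with 1 library left out, those without PexRAP-AKO replicate 1, PexRAP-AKO replicate 6 or Control replicate 3 passed. The rest did not, with edgeR adjusted p from 0.0873 to 0.181. G6pdx also did not pass when adjusted for brown adipocyte markers (0.49, edgeR adjusted p = 0.216) or skeletal muscle markers (0.50, edgeR adjusted p = 0.0869). Pgd (0.56) and Idh1 (0.29) had edgeR adjusted p of 0.143 and 0.182. Of 15 tested genes of quinone, aldehyde and other detoxification 0 were called, with a median of 0.080. Blvra, biliverdin reductase, which acts on the product of haem oxygenase, was at 0.33, Akr1b8 at 0.32 and Aldh3a2, a fatty aldehyde dehydrogenase, at 0.13 (edgeR adjusted p = 0.176, 0.224 and 0.272).

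In the cystine and glutathione arm of ferroptosis defence, 0 of 15 were called, with a median of 0.11. After Gss, which is in this list too, the smallest p belonged to Slc7a5, an amino acid transporter (0.41), and Sephs2, which makes selenophosphate for selenoproteins such as GPX4 (0.17; edgeR adjusted p = 0.32 and 0.339). In the radical trapping arm, 0 of 12 were called, with a median of 0.018. Mboat2, an acyltransferase that enriches phospholipids in monounsaturated chains, averaged 1.96 ± 0.702 CPM in PexRAP-AKO and 3.06 ± 0.311 CPM in Control (SD, n = 5 each, log2 fold change -0.64, edgeR adjusted p = 0.213). In 4 of 5 PexRAP-AKO libraries Mboat2 was below all Control libraries, the exception being replicate 6 at 3.18 CPM. Mboat2 passed in 1 of 24 other settings, with the lymphocyte score, which was highest in that library, as a covariate (log2 fold change -0.92, edgeR adjusted p = 0.0414). Stard7, a lipid transfer protein, was at 0.16 (edgeR adjusted p = 0.417).

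Of 24 genes of iron handling, 0 were called, with a median of 0.022. Tfr2, a second transferrin receptor that is known as an iron sensor of liver and red cell precursors, stood at 13.9, 15.2, 12.9, 13.8 and 15.1 CPM in PexRAP-AKO and at 7.99, 10.7, 9.24, 5.86 and 6.35 CPM in Control. The groups did not overlap, and its log2 fold change of 0.81 (SE 0.15) came with an edgeR adjusted p of 0.0704. Tfr2 passed in 6 of 26 other settings, each of which also called more genes in all, 26 to 439 against 15. Cisd1, an iron-sulfur protein of the outer mitochondrial membrane, was at 0.28 (edgeR adjusted p = 0.224). Of 17 genes of lipid peroxidation and ferroptosis execution, 1 passed, and it rose. Lpcat3, which inserts polyunsaturated chains into phospholipids, stood at 113, 159, 169, 165 and 141 CPM in PexRAP-AKO and at 79.3, 92.8, 76.9, 70.8 and 73.3 CPM in Control, without overlap (log2 fold change 0.93, SE 0.11, edgeR adjusted p = 0.00892). Without Control replicate 8 its edgeR adjusted p was 0.0545 at a log2 fold change of 0.90; over all settings its log2 fold change ran from 0.77, adjusted for brown adipocyte markers, to 1.01. Acsl4, which activates the same fatty acids and was chosen after its value was seen, was at 0.15 (edgeR adjusted p = 0.416), Vdac3 at 0.31 and Agpat3 at 0.27 (edgeR adjusted p = 0.175 for both). The list had a median of 0.13. Beside these medians, all 12 brown adipocyte markers had positive fold changes (median 0.80, 0 called) and all 8 endothelial markers negative ones. After adjustment for the brown adipocyte markers, Gss, G6pdx and Tfr2 had lower log2 fold changes of 0.48, 0.49 and 0.67 (edgeR adjusted p = 0.319, 0.216 and 0.257). Lpcat3 still passed after that adjustment (edgeR adjusted p = 0.0267). The cause of these shifts was not tested. The endothelial markers were not adjusted for, and their part in the list medians was not tested.

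**Figure D4:**
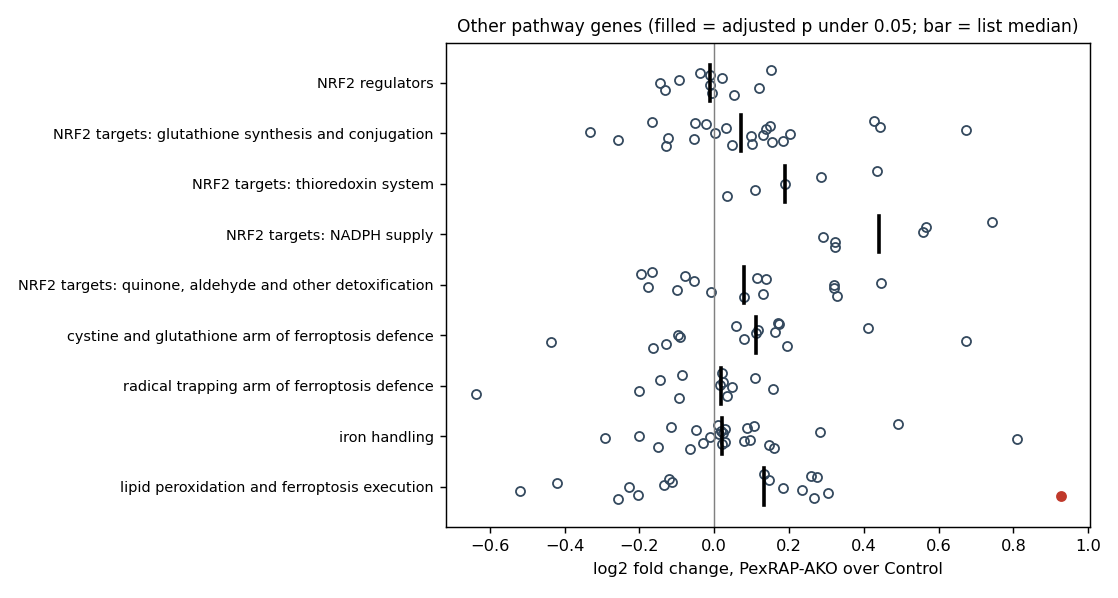
Log2 fold change, PexRAP-AKO over Control, of each tested gene in 9 lists of related pathways, 1 point per gene, with the list median as a bar and genes past an edgeR adjusted p of 0.05 filled. Lpcat3 at 0.93 is the only filled point, and the NADPH supply list has the highest median, 0.44.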

How the data were processed

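RNA-seq of inguinal white adipose tissue gave 1 library for each of 10 labelled samples. The authors deposited raw counts per gene, 1 column per sample. The submitters' processing notes name edgeR, featureCounts, Subread and STAR 2.0.4b; genome build, annotation and strand setting were not given in the sources used here. Of 40724 rows in the table, some repeated a gene: 117 identifiers had several rows, all with the same counts, and only the first was used. Coordinates and exon lengths come from GENCODE M21 (GRCm38), which held 99.4% of the identifiers.

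Counts were scaled by TMM and filtered with filterByExpr (minimum count 10, minimum total 15). The main test was edgeR's robust quasi-likelihood F test on all 10 samples (edgeR 4.0.16, R 4.3.3), with Benjamini-Hochberg adjustment over 14913 genes and a threshold of 0.05. Log2 CPM used a prior count of 2. Within-library ratios were compared by exact permutation, and correlations by 100000 permutations. Standard errors were derived from the fold change and its F statistic. The test was tried on simulated data. The lowest chi-square per degree of freedom among library pairs of 1 group was 7.75, and no library was merged with another; labels do not say that samples are separate mice, so p-values measure the spread between these samples. For samples sharing a number, the deviations from group means correlated at -0.021, -0.0812 and 0.36, and the numbers were not taken as pairs. Counts behind Slc7a11 and Nqo1 are low, which limits their precision.

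Alternatives were other scalings and filters, DESeq2 1.42.0, limma 3.58.1 voom, marker scores as covariates, the replicate block and leaving out libraries. The 10 genes, the pathway and marker lists and the naming rule (all members, genes past the threshold and otherwise the 3 smallest p of each list) were chosen with earlier results of these data known. Some genes that the rule names are not reported here.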

Additional observations from a re-analysis of the deposited data

Results flagged for a closer look

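Of 50 groups of 5 values, covering the 10 members, Dhrs7b, the 4 ratios and 10 marker scores, 3 held a library far from the other 4, where chance alone gives about 1 in 20 groups, or 2.5. Members were checked on the log2 CPM scale only, and none of the 3 was a value of a member. In CPM, which was not checked, Hmox1 in Control replicate 5 and Slc7a11 in PexRAP-AKO replicate 6 stand farther from their groups than on that scale. In mean log2 CPM of the markers, the white adipocyte score was low in Control replicate 5 (11.3), the library with the highest Hmox1. The skeletal muscle score was low in PexRAP-AKO replicate 2 (-0.306). The epithelium score, which rests on 1 tested marker, Cdh1, was high in PexRAP-AKO replicate 6 (3.42), the library with the highest Slc7a11. The part of these differences in the member values was not tested.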

How the results depend on the processing

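Of the members, 0 were called in every setting but DESeq2, which called 2, Gpx4 (log2 fold change 0.23) and Keap1 (0.20); it gave no adjusted p for Nqo1 or Slc7a11, and a minimum count of 50 removed Slc7a11. Members without overlap numbered 3, and 1 (Keap1) with total counts alone, where the median over all genes was -0.073. With 1 library left out the number was 3 each time, which is no check, as taking values away cannot create overlap. Keap1, Gclm, Gpx4, Slc7a11 and Nqo1 kept their direction in all settings, as did the 4 ratios, of which none passed. Dhrs7b kept its call throughout.

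The count of 15 called genes (93.3% higher) was 26 with no filter, 439 with DESeq2 (70.4% higher), 107 with sample quality weights (82.2%), 88 (65.9%), 7, 7 and 42 with the macrophage, brown adipocyte, skeletal muscle and lymphocyte scores, and 98 at an adjusted p under 0.1 (82.7%). Leaving out 1 library gave 3 to 58: 3 when Control 8 was dropped, 5 for Control 7, 6 each for Control 2, Control 5, PexRAP-AKO 2 and PexRAP-AKO 5, 43 for Control 3 and 58 for PexRAP-AKO 1. Chosen after seeing the data, it was 5 without both PexRAP-AKO replicate 6 and Control replicate 8 and 259 without the 2 deepest libraries. With the replicate block (numbers 2, 3 and 5) it was 3, and 2 in an unblocked fit of those 6 libraries. The block changed no member's call; Gclm was at 0.14 with it and 0.13 without it, against 0.34 without the 2 deepest libraries, and Lpcat3 had an adjusted p of 0.0611 with it and 0.0437 without it. Of the genes in the 9 pathway lists, 1 was called, against 2 with DESeq2 size factors, upper-quartile scaling, a minimum count of 50 or voom, 3 with no filter or the lymphocyte score, 4 with quality weights, the macrophage score or an adjusted p under 0.1, 8 with DESeq2, 0 with the replicate block, 0 to 3 with 1 library left out, 0 without both named libraries and 6 without the 2 deepest. The cause of these moves was not tested.

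Some members near 0 changed sign, and none of these passed. Nfe2l2 was at -0.0086 with upper-quartile scaling, -0.066 with total counts alone, -0.0049 with no filter, -0.00082 with a minimum count of 50, -0.0019 with voom, -0.019, -0.048 and -0.0034 with the macrophage, brown adipocyte and lymphocyte scores, -0.010 without the 2 deepest libraries and -0.063 to 0.061 with 1 or 2 libraries left out. Hmox1 was at 0.0053 with voom, 0.25 with quality weights, 0.29 and 0.11 with the skeletal muscle and lymphocyte scores, 0.27 with the replicate block, 0.082 unblocked, 0.094 without both named libraries, 0.53 without the 2 deepest and -0.40 to 0.60 with 1 left out. Gclc was at -0.048 with total counts alone, -0.028 with quality weights, -0.011 with the lymphocyte score, -0.099 with and -0.096 without the block in the same 6 libraries, -0.046 without both named libraries, -0.0074 without the 2 deepest and -0.031 to 0.070 with 1 left out. Aifm2 was at 0.0042, 0.11 and 0.018 with the macrophage, brown adipocyte and lymphocyte scores and -0.065 to 0.059 with 1 left out. Tfrc was at -0.040 with the brown adipocyte score. Fth1 was at -0.054 to 0.0020 with 1 library left out.

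Of 234 list medians under these settings, 225 moved by less than 1 SD of the list's mean level. Low counts limit Slc7a11, whose log2 fold change ran from 0.30 to 4.13.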
